A study of Homo sapiens with 47 samples.

Results

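The protein-coding genes at the end of the short arm of human chromosome 3, between the telomere and the gene EAF1, were followed in wild-type HEK293T cells and in an EAF1-mutant line made from them. Members were the protein-coding genes of the count table with a lower coordinate under 15400000 on chromosome 3 (GRCh38), without LSM3 and without genes for cytosolic ribosomal proteins, of which the interval holds RPL32. This gave 85 genes of the 58395 in the table. The interval was chosen on measured values of the same comparison, because its genes were lower in the EAF1-mutant libraries, so the values of the members are given below as a description, and where members are counted past a threshold the count is no evidence from a test. HEK293T is a human embryonic kidney cell line that carries the SV40 large T antigen. RNA-seq libraries were made after removal of ribosomal RNA, 3 of them wild-type, with 59137210, 52541541 and 55637032 counts, and 3 EAF1-mutant, with 57198018, 53369621 and 66611451 counts. EAF1 partners the elongation factor ELL, and in the mutant line a short run of its residues was replaced by alanine on both alleles through CRISPR knock-in. The mutant cells are a single clonal line, so what the mutation does and what is peculiar to the clone cannot be told apart. The study describes its replicates as biological, but the labels of these libraries do not say whether cultures were separate, so p-values measure only the spread between these libraries, which may be technical.

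The interval holds genes with very different work. Several act in DNA repair: FANCD2 is modified by ubiquitin when DNA strands are crosslinked, XPC recognises bulky lesions, and OGG1 cuts out oxidised guanine. VHL and CRBN are substrate receptors of ubiquitin ligases, and VHL marks the alpha subunits of the hypoxia-inducible factors (HIF) for degradation when oxygen is present. SETD5 and BRPF1 act on chromatin, and SEC13 serves both in the coat of vesicles that leave the endoplasmic reticulum and in the nuclear pore.

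The guide RNA used to edit EAF1 is shown because it places the edited site at the edge of the interval. Its 20 bases matched chromosome 3 once, on the plus strand at chr3:15439114-15439133 (GRCh38), in coding sequence of exon 6 of EAF1. The site lies 39.1 kb past the coordinate limit and 11.5 kb from the start of EAF1. It is also inside the span of METTL6, the member nearest the limit, which runs on the opposite strand and has no exon there. The guide is in lower case and the PAM that follows it in the genome is in capitals.
EAF1 guide with PAM: gacttgcagttgagtgagtcTGG

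Summed over the 85 members, counts scaled by library size and TMM factor (CPM) came to 3199, 3197 and 3193 in the wild-type libraries and to 1038, 1037 and 1035 in the EAF1-mutant libraries. The members thus took 0.306%, 0.308% and 0.307% of all counts in wild-type cells and 0.108%, 0.108% and 0.107% in EAF1-mutant cells. The sums of the groups lay far apart while those of replicates differed little. In bulk RNA, fewer cells that transcribe a gene and less RNA of it per cell cannot be told apart.

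A filter on low counts (filterByExpr of edgeR) left 75 of the 85 members. In EAF1-mutant against wild-type cells, their median log2 fold change was -1.62, and the median member kept 32.5% of its wild-type level. The threshold asks for an adjusted p below 0.01 in edgeR's quasi-likelihood test, run on 28025 genes, together with a log2 fold change beyond 0.5 in either direction. Of the 75, 70 were lower past it and 0 were higher. Over all tested genes these shares were 9.36% lower and 11.0% higher; since this comparison chose the interval, nothing is read from the difference. In 71 of the 75, every EAF1-mutant library lay under every wild-type library, against 28.1% of all tested genes.

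The same quantity was computed for the rest of the chromosome. The 144 tested protein-coding genes from the limit to 48 Mb had a median log2 fold change of -0.71 and quartiles of -0.91 and -0.48. The 204 from 48 to 90 Mb had a median of -0.80, and the 438 of the long arm one of 0.06. Over all 15439 tested protein-coding genes the median was 0.00, with quartiles of -0.25 and 0.27. The upper quartile of the members, -1.35, lay under the lower quartiles of all these groups.

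**Figure D1:**
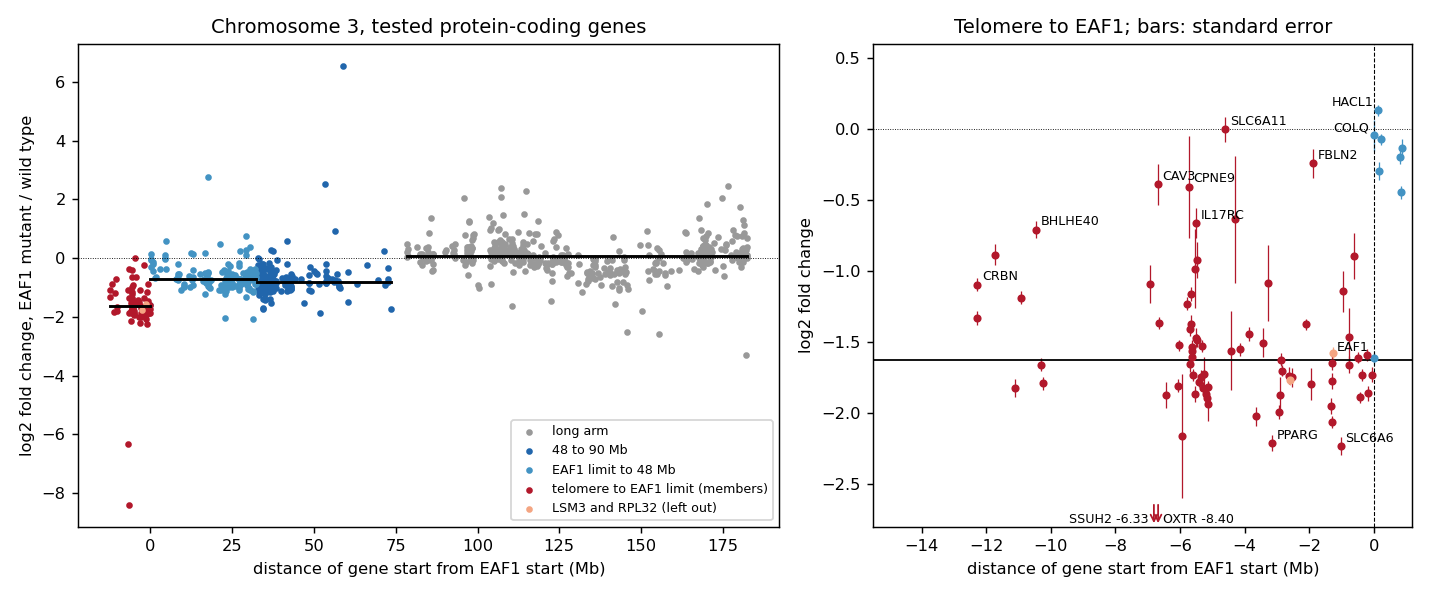
Log2 fold change of each tested protein-coding gene of chromosome 3 (points) by the distance of its start from the start of EAF1 in Mb, for the whole chromosome on the left, with horizontal bars at the median of each stretch, and for the interval on the right, with standard errors, the members' median as a line and 2 genes under the axis shown by arrows. The members have a median of -1.62, and COLQ and HACL1, the first genes past EAF1, lie at -0.04 and 0.13. Some genes a little further on are lower, such as BTD at -0.29 and OXNAD1 at -0.44.

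At the edge of the interval the values changed from gene to gene. The 3 members nearest the limit were CAPN7, an unusual calpain that binds the ESCRT machinery, SH3BP5, an activator of RAB11, and METTL6, a tRNA methyltransferase, with log2 fold changes of -1.59 (SE 0.04), -1.86 (SE 0.05) and -1.73 (SE 0.05). EAF1 (ENSG00000144597), the first protein-coding gene past the limit, had 57.5, 58.4 and 56.5 CPM in the wild-type libraries and 19.7, 17.9 and 18.8 CPM in the EAF1-mutant libraries. The point mutation leaves its RNA countable, so this level does not check the labels.

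The value of EAF1 was like that of the members before it, with a log2 fold change of -1.61 (SE 0.05). The next gene, COLQ, which encodes the collagen tail of acetylcholinesterase, had 3.38, 2.81 and 3.20 CPM in wild-type cells and 2.94, 3.13 and 3.06 CPM in EAF1-mutant cells. Its groups overlapped, and its log2 fold change was -0.04 (SE 0.11, adjusted p = 0.77, edgeR). HACL1, a peroxisomal lyase of fatty acid breakdown, had 39.2 ± 0.756 and 43.0 ± 1.26 CPM (SD, n = 3), which is 0.13 on the log2 scale (edgeR, adjusted p = 0.0111) and not past the threshold. The sign of COLQ turned when only library totals were used for scaling (0.07). EAF1 and COLQ overlap at their ends, so some of their reads may be shared.

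Log2 fold changes lay closer together among members with much RNA than among those with little. Of the 75 tested members, 56 (74.7%) lay within 0.5 of the median on the log2 scale, with quartiles of -1.82 and -1.35. The same share, around each group's own median, was 72.1% over all tested genes and 73.5% over all tested protein-coding genes. It was 80.6% from the limit to 48 Mb and 86.3% from 48 to 90 Mb, so the share is not particular to the members. The standard deviation of the members was 1.07, and 0.47 without OXTR and SSUH2, whose EAF1-mutant counts were 1 and 2. Among the 52 members with at least 10 CPM in wild-type cells, 47 (90.4%) lay within 0.5 of their median of -1.66. Their standard deviation was 0.30. This cut-off was added once the values were known, and no matching share is given for other genes at that level.

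Even there the members were not all alike, because the median standard error of a log2 fold change was 0.05. Among the 23 tested members under 10 CPM, the median was -1.14, with quartiles of -1.83 and -0.78, and 10 lay within 0.5 of it. Their median standard error was 0.14, so counting noise is larger in this group. The 10 members left out by the filter also belong to it.

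**Figure D2:**
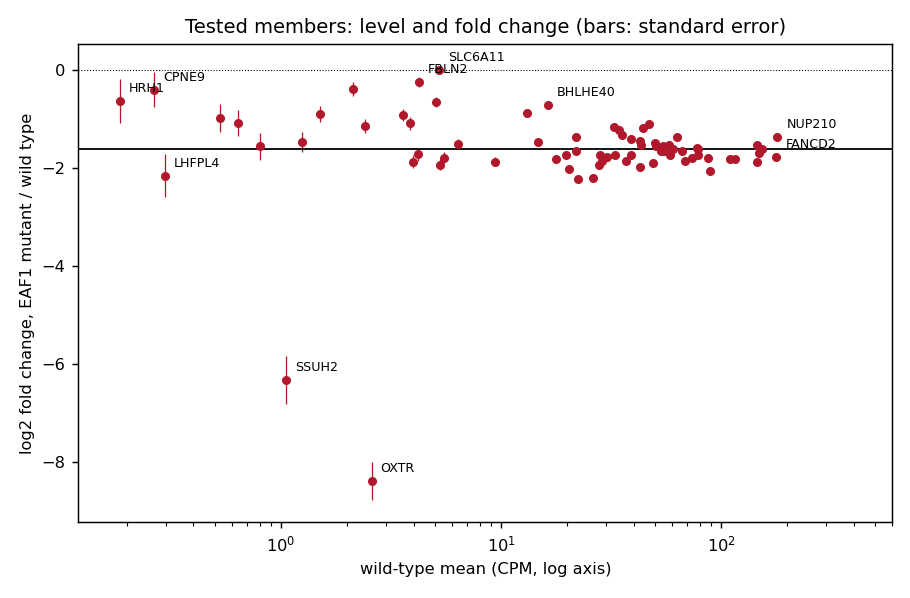
Log2 fold change with its standard error (y axis) of each tested member against its mean CPM in wild-type cells (x axis, log scale), with a line at the members' median. Standard errors were derived from the F statistic. For OXTR and SSUH2, with very few EAF1-mutant counts, they are narrower than the counting intervals. Members with 10 CPM or more form a band around -1.62, and SLC6A11 at 0.00 and OXTR at -8.40 are the extremes.

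The 3 EAF1-mutant libraries gave the same picture. Each against the wild-type mean, their medians over the 75 tested members were -1.63, -1.62 and -1.66. The share within 0.5 of the library's own median was 77.3%, 77.3% and 76.0%. In the fit of all 6 libraries, the share over all tested protein-coding genes was 73.5%. No library stood apart from the other 2.

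Along the interval, 4 stretches of 3.85 Mb held very unequal numbers of members. The stretch at the telomere had 8 members, only 3 of them past the filter, with a median of -1.10. The second had 6 members and 5 past the filter (median -1.66), the third 40 and 38 (median -1.55), and the stretch next to EAF1 31 and 29 (median -1.73). With so few genes near the telomere, its median is the value of a single gene, CRBN.

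Across the 52 members with at least 10 CPM in wild-type cells, distance from the limit and log2 fold change had a Spearman correlation of 0.504. Over all 75 tested members it was 0.217, so the relation was weak without that cut-off, and the medians of the 4 stretches did not fall steadily toward EAF1. For wild-type CPM per kb of exon it was -0.325, for exon length 0.051 and for the span of the gene 0.103 over the 75. These genes share the same 6 libraries and are not independent, and the correlations are descriptions.

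The 5 members of the DNA repair list were all lower past the threshold, with a median log2 fold change of -1.65. FANCD2 had 175.7, 182.8 and 176.6 CPM in the wild-type libraries and 52.9, 51.7 and 51.5 CPM in the EAF1-mutant libraries. Its groups lay wide apart, at 29.2% of the wild-type level and a log2 fold change of -1.78 (SE 0.04). XPC, which starts global genome repair, had 50.5, 53.0 and 55.8 CPM and 16.9, 16.5 and 17.4 CPM, or 31.9%. OGG1 had 38.8 ± 1.95 CPM against 14.6 ± 0.637 CPM (SD, n = 3). Neither gene's groups overlapped, and OGG1 (log2 fold change -1.41, SE 0.05) kept a little more than XPC (-1.65, SE 0.05). RAD18, the ubiquitin ligase that modifies PCNA at stalled forks, was at 38.8% of its wild-type level.

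The 4 members of the list of ubiquitin ligases and adaptors, from which RAD18 was left to DNA repair, were all lower past the threshold (median -1.68). VHL had 113.0, 117.7 and 115.2 CPM in wild-type cells against 31.6, 32.2 and 33.8 CPM in EAF1-mutant cells. This is 28.2% of the wild-type level and a log2 fold change of -1.82 (SE 0.04), among the lower members. CRBN, the receptor through which thalidomide acts, had 46.4, 48.5 and 46.3 CPM and 22.6, 21.4 and 22.1 CPM. Its groups did not overlap either, but it kept 46.8%, with a log2 fold change of -1.10 (SE 0.04). MKRN2, a RING finger ligase, and CAND2, which exchanges substrate receptors on cullins, were at 32.5% and 30.1%.

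The 9 members of chromatin and transcription were all lower past the threshold, but spread from -2.21 for PPARG to -0.71 for BHLHE40 (median -1.52). NR2C2, an orphan nuclear receptor, had 152.9 ± 3.58 CPM in wild-type cells against 50.2 ± 0.739 CPM in EAF1-mutant cells (SD, n = 3). SETD5 had 141.9, 148.2 and 146.7 CPM and 48.5, 52.9 and 50.6 CPM, with groups far apart and a log2 fold change of -1.52 (SE 0.04). BRPF1, a scaffold of histone acetyltransferases, was at 31.7% of its wild-type level and VGLL4, a cofactor of the TEAD factors, at 36.8%. NR2C2 shares 61.9% of its exon bases with other genes, MRPS25 among them, so reads of the pair may be counted for either.

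The 6 members of the list of tRNA and RNA processing were all lower (median -1.73). THUMPD3, which methylates tRNA, RPUSD3, a pseudouridine synthase of mitochondria, and METTL6 were at 28.6%, 30.1% and 30.2% of their wild-type levels. The values of these 3 hardly differed.

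In the secretory pathway and nuclear pore, all 8 members were lower (median -1.64). SEC13 had 110.0, 107.2 and 110.9 CPM in wild-type cells against 30.6, 31.3 and 31.5 CPM in EAF1-mutant cells, which makes a log2 fold change of -1.81 (SE 0.04). NUP210, an integral membrane protein of the pore and the member with the most CPM, had 189.2, 170.3 and 180.8 CPM and 69.5, 70.1 and 68.9 CPM. Both genes had groups that did not overlap, and NUP210 kept more, with a log2 fold change of -1.37 (SE 0.04). TMEM43, a protein of the inner nuclear membrane, kept 23.9% and was among the 5 members furthest under the median of those with at least 1 CPM. EDEM1, which helps to clear misfolded glycoproteins, was at 28.9%.

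The 3 members of the mitochondrial list lay close together, and their median of -1.95 was the lowest of the 11 lists; RPUSD3, which also acts in mitochondria, was counted with RNA processing. MRPS25, of the small subunit of the mitochondrial ribosome, CHCHD4, which imports proteins into the intermembrane space, and TAMM41, which makes the precursor of cardiolipin, had log2 fold changes of -1.89, -1.95 and -2.02. A list of 3 genes has little weight, and the lists were not tested against each other.

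Of the kinases and signalling proteins, all 5 were lower (median -1.70). ITPR1, a calcium channel of the endoplasmic reticulum, kept 43.9% of its wild-type level and CAMK1, a calcium-dependent kinase, 38.7%, while SH3BP5 kept 27.6%. CAMK1 shares 80.1% of its exon bases with OGG1, which runs on the opposite strand, so its count may not be independent of that gene.

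The 9 members of actin, microtubules and vesicle traffic were lower as well (median -1.61). ARPC4, a subunit of the Arp2/3 complex that nucleates branched actin, was at 32.9%. RBSN, a RAB5 effector of early endosomes, and CAPN7 were at 30.2% and 33.2%. In autophagy, ATG7, the activating enzyme for ATG8 and ATG12, was at 34.1% and MTMR14, a phosphoinositide phosphatase, at 42.6%.

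**Figure D3:**
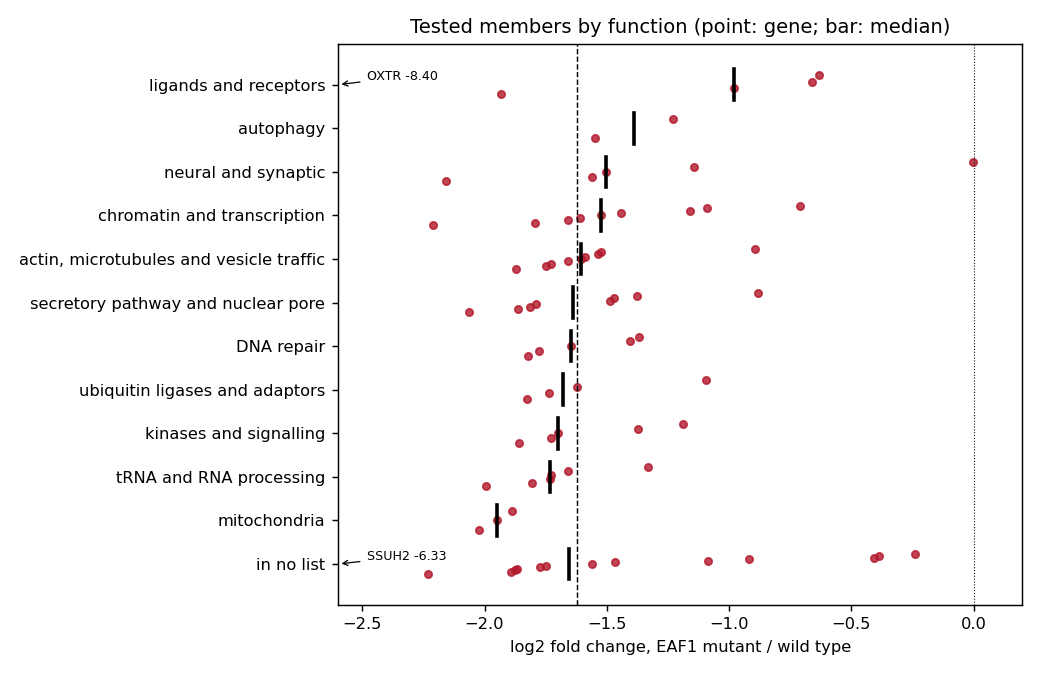
Log2 fold change (x axis) of the tested members in each list of functions and of those in no list (rows), with a bar at each list's median and a dashed line at the median of all tested members; OXTR and SSUH2 lie under the axis range and are marked by arrows. The list medians run from -1.95 for mitochondria to -0.98 for ligands and receptors.

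Members of the neural list and of the ligands and receptors all had under 10 CPM in wild-type cells. Of 11 neural and synaptic members, 5 passed the filter, and 4 of these were lower past the threshold. SYN2, a synaptic vesicle protein, had 6.35 ± 0.211 and 2.25 ± 0.242 CPM, and GRIP2, a scaffold for AMPA receptors, was at 44.9% of its wild-type level. Of 7 ligands and receptors, 5 passed the filter and 4 were lower. GHRL, the gene of the hormone ghrelin, had 5.26 ± 0.0370 and 1.36 ± 0.230 CPM. IL17RE, a receptor for an interleukin of the IL-17 family, had 0.526 and 0.268 CPM, and DESeq2, library totals or leaving out wild-type replicate 1 or 3 or EAF1-mutant replicate 2 or 3 took it from the threshold.

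More members lay above the window of 0.5 around the median than under it, 14 against 5 of the 75 tested. Of the 14, only CRBN, BHLHE40 and SUMF1 had at least 10 CPM in wild-type cells. The 5 were OXTR, SSUH2, SLC6A6, PPARG and LHFPL4; SUMF1 and LHFPL4 were named after their values were seen. The 5 tested members not past the threshold were SLC6A11, FBLN2, CAV3, CPNE9 and HRH1, and CPNE9 and HRH1, named after their values were seen, were under 0.3 CPM in wild-type cells. SLC6A11, a GABA transporter, had 5.41, 5.42 and 4.90 CPM in the wild-type libraries and 5.05, 5.59 and 5.08 CPM in the EAF1-mutant libraries. Its groups overlapped, at a log2 fold change of 0.00 (SE 0.09), with a sign that turned with the scaling (0.11 with library totals alone).

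FBLN2, an extracellular matrix protein, had 4.37, 3.88 and 4.47 CPM and 3.21, 3.94 and 3.63 CPM, with groups that overlapped and a log2 fold change of -0.24 (SE 0.10). CAV3, the caveolin of muscle, had 2.12 ± 0.122 CPM against 1.63 ± 0.288 CPM (SD, n = 3). Its groups did not overlap, but its log2 fold change of -0.39 (SE 0.14) was under 0.5 in size, and it was -0.54 and past the threshold without EAF1-mutant replicate 2. IL17RC, an interleukin-17 receptor chain, and BHLHE40, a repressor that responds to the circadian clock and to hypoxia, were lower past the threshold but kept 63.6% and 61.1%. BHLHE40 had 15.8, 16.4 and 16.7 CPM and 9.94, 9.53 and 10.4 CPM, so it was an exception with a well-measured level.

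Exceptions below the median began with genes that were nearly lost. OXTR, the oxytocin receptor, had 2.18, 2.81 and 2.75 CPM in the wild-type libraries, from 412 counts, and 1 count in the 3 EAF1-mutant libraries together. From the pooled counts it was 472.5-fold lower, with a counting interval of 84.3 to 18709 (95%, Clopper-Pearson, counting error only). SSUH2 had 0.884, 1.21 and 1.07 CPM in wild-type cells, from 168 counts, and 2 counts in EAF1-mutant cells, which is 96.3-fold lower with an interval of 26.3 to 802. These sizes rest on 1 and 2 counts: without EAF1-mutant replicate 3 the log2 fold change of OXTR moved from -8.40 to -10.15, and without replicate 2 that of SSUH2 from -6.33 to -8.93 (-5.74 without replicate 3).

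OXTR (8750381 to 8769628) lies inside the span of CAV3 (8733802 to 8841808) on the opposite strand, and SSUH2 (8619386 to 8745040) overlaps one end of it. The members with nearly no RNA left thus overlapped a member that kept 76.8%, though CAV3 shares no exon bases with either. PPARG, the nuclear receptor of fat cell differentiation, had 25.4, 27.0 and 26.4 CPM and 5.52, 5.67 and 5.82 CPM, a log2 fold change of -2.21 (SE 0.06). SLC6A6, the taurine transporter, was at 21.3% of its wild-type level (log2 fold change -2.23, SE 0.06). For neither did the groups overlap.

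**Figure D4:**
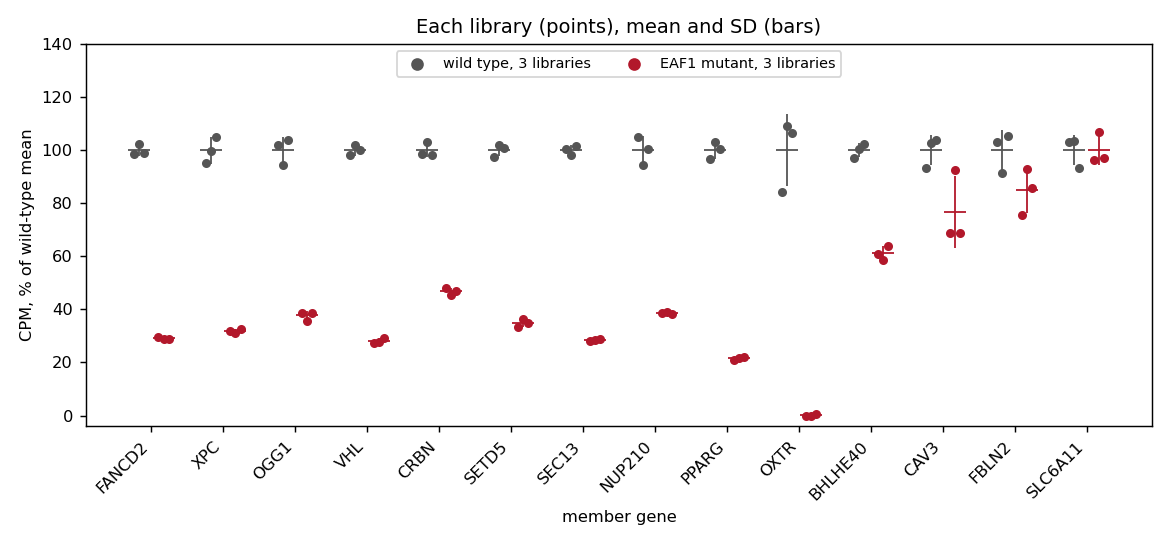
CPM of 14 members in each of the 6 libraries as percent of the gene's wild-type mean (y axis), with grey points for wild-type and red points for EAF1-mutant libraries, and the mean and SD as bars. The groups are apart in every gene but FBLN2 and SLC6A11, and OXTR is near 0 in the EAF1-mutant libraries.

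The start regions of 3 members are printed because these members share an interval and differ in their values: FANCD2 at 29.2% of its wild-type level, OXTR nearly lost and SLC6A11 at a log2 fold change of 0.00. Each run covers 250 bases before and 50 after the start in RefSeq (GRCh38.p14), read in the direction of the gene, at chr3:10026187-10026486 (plus strand), chr3:8769564-8769863 (minus strand) and chr3:10815978-10816277 (plus strand). Capitals mark CG pairs, of which the FANCD2 window holds 29, that of OXTR 11 and that of SLC6A11 39.
FANCD2 start region: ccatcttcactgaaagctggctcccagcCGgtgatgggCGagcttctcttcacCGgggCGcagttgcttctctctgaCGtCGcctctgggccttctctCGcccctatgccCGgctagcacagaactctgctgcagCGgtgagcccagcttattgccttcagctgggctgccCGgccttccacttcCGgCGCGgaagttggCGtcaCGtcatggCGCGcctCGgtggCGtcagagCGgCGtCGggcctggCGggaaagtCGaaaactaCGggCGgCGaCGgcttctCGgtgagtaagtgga
OXTR start region: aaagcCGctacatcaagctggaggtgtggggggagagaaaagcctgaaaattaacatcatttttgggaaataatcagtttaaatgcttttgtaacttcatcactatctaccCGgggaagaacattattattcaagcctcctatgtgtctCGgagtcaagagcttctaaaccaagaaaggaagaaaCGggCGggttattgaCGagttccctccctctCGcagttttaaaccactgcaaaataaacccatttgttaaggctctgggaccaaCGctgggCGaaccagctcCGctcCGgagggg
SLC6A11 start region: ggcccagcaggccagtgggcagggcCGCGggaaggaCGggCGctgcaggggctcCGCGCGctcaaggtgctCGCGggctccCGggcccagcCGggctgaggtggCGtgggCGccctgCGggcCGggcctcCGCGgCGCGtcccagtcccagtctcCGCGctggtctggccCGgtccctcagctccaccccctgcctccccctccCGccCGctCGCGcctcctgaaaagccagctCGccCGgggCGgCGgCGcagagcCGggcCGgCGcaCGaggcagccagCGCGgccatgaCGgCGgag

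Of the 85 members, 73 had a start region in the RefSeq table, where the most upstream window was taken for a gene with several. Their median GC content was 64.7%, against 58.3% for the 27326 genes of the table. These are more than the 19773 protein-coding genes among the counts, so they include other kinds of genes, while every member is protein-coding. No values for protein-coding genes alone are given, so the differences here are not read as a trait of the interval. The letters GGGCGG were found on either strand in 69.9% of the members' windows and in 44.5% of all, and TATAAA in 4.11% (3 of 73) against 3284 of all 27326. CCAAT was in 27.4% and 35.7%, and CACGTG in 5.48% and 7.41%. A match says only that the letters are in the window. Across the 63 of these members that passed the filter, GC content and log2 fold change had a Spearman correlation of 0.152, and the number of CG pairs one of -0.0717.

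The 10 members under the filter were CHL1, CNTN4, CNTN6, GRM7, LRRN1 and ATP2B2 of the neural list, IL5RA and WNT7A of the ligands and receptors, and CIDEC and TMEM40. They had from 1 to 33 counts over all 6 libraries, too few to give a difference at this depth. ATP2B2, with the most, had 24 counts in wild-type and 9 in EAF1-mutant cells, while CNTN4 had 11 and 11.

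Some members may not be separate measurements. Exon bases shared with another annotated gene were found in 54 of the 85 members, and 4 shared 80% or more of theirs: CAMK1 and the loci ARPC4-TTLL3, ENSG00000272410 and ENSG00000268279, which read across neighbouring genes. The library kit keeps strand, but how the authors' counting treated strand and shared bases is not stated in the sources at hand. The 26 tested members that shared no exon base had a median of -1.62, and so did the 49 others. The genes left out by the rule had like values, with log2 fold changes of -1.58 for LSM3 and -1.77 for RPL32, whose level went from 716.0 to 210.5 CPM.

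Genes elsewhere in the genome that work with a member were compared by the same fit, in 14 lists (12 of them described below, the 2 others with 2 of the lower genes) with 148 genes, of which 147 passed the filter. Of these, 21 (14.3%) were lower and 6 (4.08%) higher past the threshold, beside 9.36% and 11.0% of all tested genes, and their median log2 fold change was -0.09. The balance depended on scaling: with library totals alone, 14 partners were lower and 9 higher, and of all tested genes 1840 were lower and 4169 higher.

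The ubiquitin ligase of VHL has ELOB, ELOC, CUL2 and RBX1 as its other subunits, and 0 of these 4 passed the threshold in either direction by edgeR. Of 18 genes known as HIF targets, 17 passed the filter, 6 were lower and 2 higher (median -0.20). NDRG1, a gene of the stress response, rose from 25.2 ± 1.11 to 94.4 ± 2.09 CPM (SD, n = 3), with a log2 fold change of 1.91 (SE 0.04, adjusted p = 7.31e-20, edgeR). CA12, a carbonic anhydrase at the cell surface, fell from 11.1 to 3.95 CPM (edgeR, -1.48 on the log2 scale, adjusted p = 2.25e-13). PGK1, an enzyme of glycolysis, and VEGFA, a growth factor for vessels, fell with log2 fold changes of -0.98 and -0.83. The targets thus did not move one way.

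In the Fanconi anaemia pathway around FANCD2, 4 of 16 genes were lower and 0 higher (median -0.12). FANCB, a subunit of the core ligase, fell from 37.9 ± 1.93 to 20.8 ± 0.614 CPM (edgeR, -0.86 on the log2 scale, adjusted p = 4.55e-13). UBE2T, the conjugating enzyme that acts on FANCD2, and FANCM, a DNA translocase, had log2 fold changes of -0.57 and -0.50, and both left the threshold with library totals alone. FANCM also left it with a filter at a mean of 1 CPM and without EAF1-mutant replicate 3. FANCF had the largest value, -2.84 (SE 0.50), but at 0.285 CPM in wild-type cells against 0.0392 CPM in EAF1-mutant cells, and it moved to -3.50 without EAF1-mutant replicate 2.

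Of 16 genes of nucleotide excision repair, which XPC starts, 0 were lower and 1 was higher by edgeR. This was DDB2, the damage sensor for ultraviolet lesions, which rose from 10.4 ± 0.529 to 28.4 ± 2.21 CPM (edgeR, 1.45 on the log2 scale, SE 0.06, adjusted p = 3.40e-15). Of 16 genes of base excision repair, 3 were lower and 0 higher. MPG, a glycosylase for alkylated bases, fell from 21.5 to 10.9 CPM (edgeR, -0.98 on the log2 scale, adjusted p = 2.75e-11), and APEX1, the main endonuclease at abasic sites, and PARP1, which marks strand breaks, had log2 fold changes of -0.61 and -0.57 and left the threshold with library totals alone.

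The partners in multi-subunit complexes were counted in the same way. The other subunits of Arp2/3 gave 1 lower of 8 (ARPC5, log2 fold change -0.65), and those of the WAVE complex, to which BRK1 belongs, 1 lower and 1 higher of 8. These were the related subunits CYFIP1, which fell from 113.6 to 61.8 CPM, and CYFIP2, which rose from 40.4 to 79.6 CPM. The Y complex of the nuclear pore gave 1 lower of 9 (NUP133, -0.71) and the ER membrane protein complex 1 lower of 9 (EMC9, -0.57), which left the threshold with library totals alone.

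The SAGA and ATAC acetyltransferase subunits gave 2 lower and 1 higher of 15: TAF5L (-0.63) and ATXN7 (-0.58) fell, and the acetyltransferase KAT2B (0.57) rose. ATXN7 left the threshold with library totals alone. It lies on chromosome 3 past EAF1, as KAT2B does. The 4 genes around CRBN had 0 past the threshold by edgeR, and of 13 genes of ATG8 and ATG12 conjugation 1 was higher, MAP1LC3B (0.58), which wild-type replicate 1 decided.

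**Figure D5:**
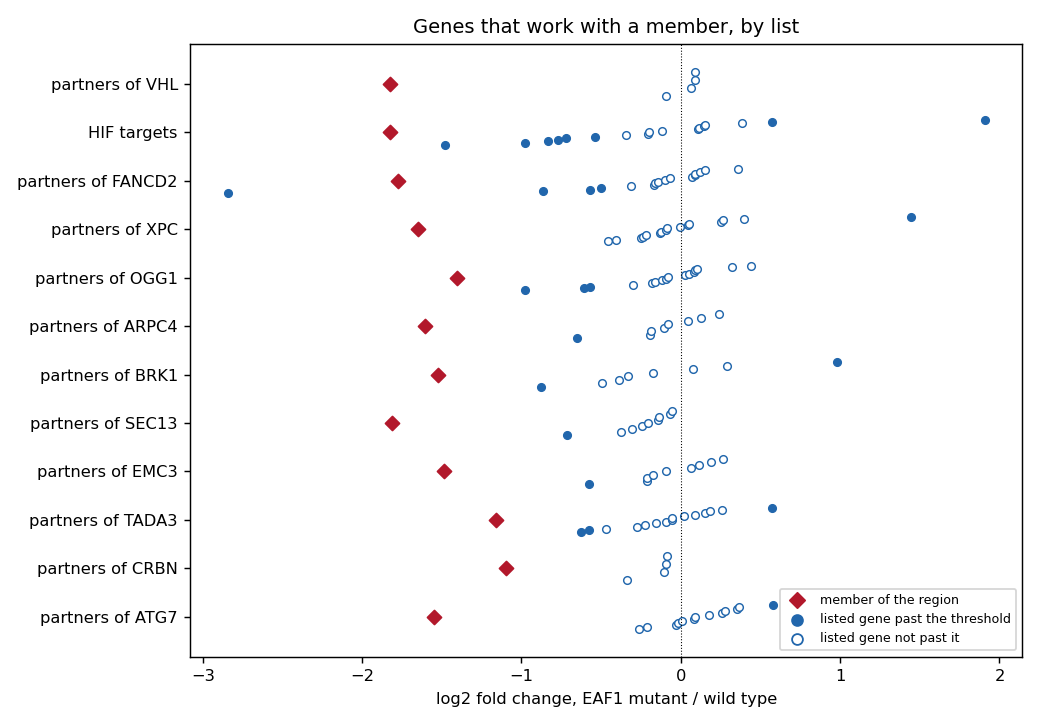
Log2 fold change (x axis) of the tested genes in each of 12 lists (rows; circles, filled where past the threshold) and of the member they work with (diamond, VHL for HIF targets). The listed genes scatter around 0, and the members lie at -1.10 or lower.

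The cell type was checked against marker genes. All 7 genes known to be active in HEK293T passed the filter, with sums of 509.5, 520.6 and 537.1 CPM in the wild-type libraries and 292.6, 290.2 and 298.6 CPM in the EAF1-mutant libraries. Of these, 3 were lower and 0 higher: VIM, the most abundant, fell from 380.5 to 199.4 CPM, NEFM from 62.4 to 25.1 CPM and NES from 12.2 to 7.82 CPM, while NEFL, INA, PAX2 and EYA1 did not pass the threshold. The 6 genes that define blood, liver, endothelium, muscle or squamous epithelium all stayed under the filter. Their sums were 0.212, 0.277 and 0.131 CPM in the wild-type libraries and 0.285, 0.450 and 0.550 CPM in the EAF1-mutant libraries. Every EAF1-mutant library thus had the higher sum, from few counts. MYOD1 was the most abundant of them in wild-type cells and ALB in EAF1-mutant cells. ALB had 2, 4 and 1 counts in wild-type and 6, 8 and 13 in EAF1-mutant libraries. CD3E had 1 count in 1 wild-type library and 0 in the rest, and KRT5 had 0 in all but EAF1-mutant replicate 3. The part of the lower HEK293T markers, and of the higher sum of the others, in the values of the interval was not tested.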

How the data were processed

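Counts from RNA-seq after ribosomal RNA depletion, from 3 wild-type and 3 EAF1-mutant HEK293T libraries, were used and grouped by the labels. The authors trimmed reads, used HISAT2 for mapping (GRCh38) and Rsubread for counting per Ensembl gene, and deposited raw counts. The submitters' notes name Trimmomatic 0.38, while the methods name Trim Galore. Of 58395 identifiers, 57754 matched GENCODE v44 (GRCh38), the source of symbols, positions and exon lengths. For the re-analysis, edgeR 4.0.16 in R 4.3.3 was used for TMM scaling, filterByExpr, CPM and log2 fold changes, with its quasi-likelihood test on 28025 genes adjusted by Benjamini-Hochberg. Standard errors (SE) were not fitted directly. Each was taken as the size of the log2 fold change divided by the square root of its F statistic. With very few counts in a group, as for OXTR and SSUH2, they are narrower than the counting intervals. Between replicates the biological coefficient of variation was 4.11%. The procedure was tested on simulated data in which only genes over 1 CPM were changed, and far fewer genes than were called here. That test thus does not cover genes under 1 CPM or scaling when so many genes change. Summaries used Python 3.11.15. Replicate pairs differed by more than counting noise. At these depths genes under 1 CPM passed the filter. The ELL ChIP-seq table was not used.

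Named genes were the 5 members furthest above and below the median with at least 1 CPM in either group, the 6 with the most wild-type CPM, up to 4 per member list with the most wild-type CPM, the 3 nearest the limit and the 3 genes just past it, 8 members fixed by name, VHL, XPC, OGG1, FANCD2, CRBN, SETD5 and SEC13 among them, EAF1, and up to 4 per partner list with the largest change past the threshold. Members and lists were chosen with earlier results of these data known. Alternatives were DESeq2 1.42.0, library totals, other filters, a block for replicate number, omission of each library, other thresholds and other sets of members.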

Additional observations from a re-analysis of the deposited data

How the results depend on the processing

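The count of members lower past the threshold was 70 and ran from 64 to 71 over the alternatives run, and the count of partner genes was 27 and ran from 23 to 28. The members' median log2 fold change of -1.62 moved to -1.51 with library totals alone, which put the median of all tested genes at 0.13 in place of 0.01, and stayed within -1.64 and -1.61 with 1 library left out. The share of members within 0.5 of the median, 74.7%, moved with several choices. It was 70.6% with no filter and 69.4% with DESeq2, which also ran without the filter, so tool and filter changed together there. The share was 79.1% at a mean of 1 CPM and 78.3% at 1 CPM in wild-type cells. It was 65.4% without members that share exon bases with another gene, and 74.7% to 78.7% with 1 library left out. After the data were seen, it was also taken without members that share 80% or more of their exon bases (73.2%) and at 10 CPM in wild-type cells (90.4%). The cause was not tested. SLC6A11 changed sign with library totals (0.114), a mean of 1 CPM (0.0174) and a library left out (-0.0654 to 0.0223), and COLQ with library totals (0.0722) and a library left out (-0.123 to 0.0035); neither passed the threshold. Of 799 values of named genes, 775 kept direction and side of the threshold. With the replicate number as a block the counts were 70 and 27, the median -1.62 and the share 74.7%. The numbers do not pair the libraries: deviations of same-numbered libraries correlated at 0.06, -0.18 and 0.208 over 11418 genes, and not each was closest to its own number. The 10 members under the filter gave no value in the main fit, and they entered the values with DESeq2 and with no filter.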

Other observations

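The interval also holds 136 genes of the table that are not protein-coding, of which 44 passed the filter on low counts. They lie in the interval that the same comparison chose, so their values are a description too. Their median log2 fold change was -1.65, beside -1.62 for the protein-coding members, with quartiles of -1.91 and -1.21. The 25 tested long noncoding RNA genes had a median of -1.59 and the 12 tested pseudogenes one of -1.60. FGD5-AS1, a long noncoding RNA, had 105.5 ± 3.12 CPM in wild-type cells against 31.0 ± 0.886 CPM in EAF1-mutant cells (SD, n = 3). SNORA7A, a box H/ACA small nucleolar RNA that lies in an intron of RPL32, had a log2 fold change of -1.56, and its host one of -1.77. These genes were named after their values were seen, and many overlap a member.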
